A study of Mus musculus with 12 samples.

Results

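Gene expression in mouse testes given a virus that inhibits lncRNA8276 was compared with testes of the group called 5NC, over every gene of the deposited table. Each group held 3 RNA-seq libraries, so 6 of the 12 libraries of the series were compared, and the table listed 20718 genes. All 12 entered the fit that gave the spread behind the p-values. The labels give the animals as F0 mice of a strain written IRC mouse, with no age, and give the tissue of all groups as testes and the starting material as total RNA. The knockdown libraries are called KD below. The study also made libraries of testes in which a virus raised lncRNA8276 (OV) and of a second group named 3NC. The labels do not spell out 5NC or 3NC. The design statement lists 5NC next to overexpression and 3NC next to knockdown, so 5NC may not be the control made for the knockdown virus. In KD against 5NC, the loss of the lncRNA and any difference between the viruses cannot be told apart. Levels in 3NC or OV are therefore given beside many of those results, but not beside all. No gene symbol of the table carries the number of lncRNA8276, so its own level is not analysed here. Nothing in the labels says whether libraries of a group came from separate animals, so the p-values measure the spread between these libraries, which may be technical.

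The genes of smallest p between KD and 5NC were mostly immediate early genes. These genes are transcribed within minutes of a stimulus from promoters that are already poised, without the need for new protein. Many of them code for transcription factors, among them the zinc finger proteins of the EGR family and the FOS and JUN proteins that pair to form AP-1, and others code for proteins that shut the response down again by destroying mRNA or dephosphorylating kinases. Their transcripts are short-lived. In the testis they have been studied in Sertoli and Leydig cells that receive hormone signals, and in germ cells.

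Libraries held 15448442 to 16355720 estimated reads, and 18624 to 18797 genes had a value above 0. Of the 6 libraries compared, 5NC replicate 1 lay farthest from the others: the chi-square per gene between its counts and those of the other 5 was 10.2 to 14.8, against 2.93 to 5.60 among those 5. In a principal component analysis of all libraries, 3NC replicate 2 and OV replicates 1 and 3 stood apart on the first component. Each of these libraries was left out in turn or together as an alternative. Spermatid transcripts were the most abundant of the marker lists, as checked against the labelled tissue: summed CPM (reads scaled to the size of each library) of 22 elongating spermatid genes was 28097 to 36027 in KD and 5NC, against 1456 to 2174 for 25 Sertoli cell genes.

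Of 16320 genes tested, 8 rose in KD relative to 5NC and 0 fell at a Benjamini-Hochberg adjusted p under 0.05 (edgeR quasi-likelihood test, 0.049% of the genes tested). At an unadjusted p under 0.05 there were 384 higher (2.35%) and 441 lower (2.7%), and the smallest adjusted p of a lower gene was 0.198. The 8 genes were Egr1, Btg2, Fos, Fosb, Zfp36, Ier2, Arhgap40 and Junb. All but Arhgap40 belong to a list of immediate early genes that was chosen with earlier results of these data known. DESeq2 called 35 genes in the same comparison, 23 higher and 12 lower, and limma with voom and sample weights called 27, 17 higher and 10 lower. Both sets included the 8.

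**Figure D1:**
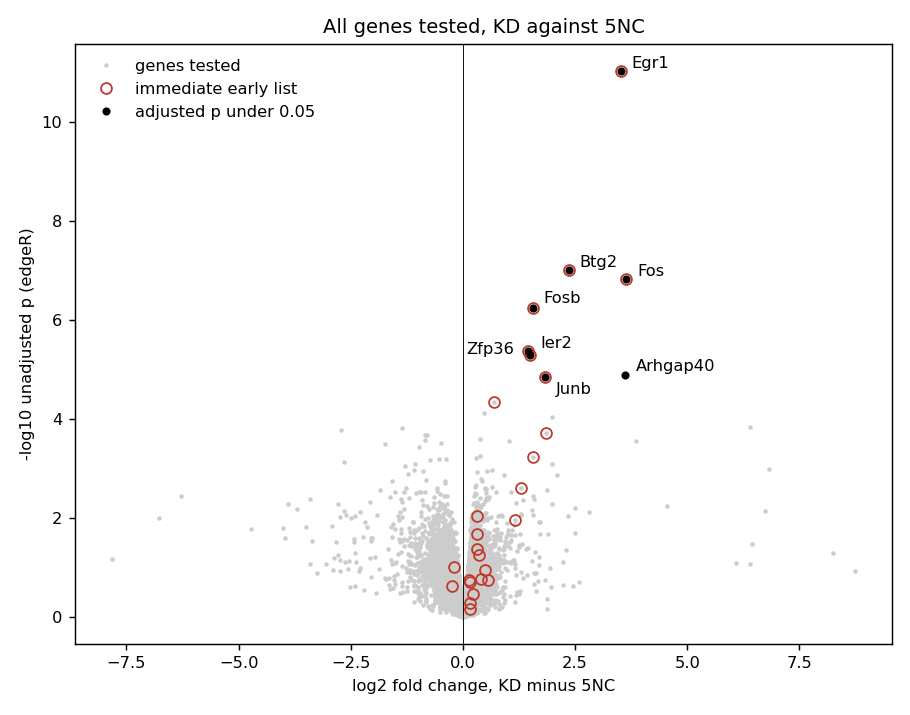
Each point is 1 of the 16320 genes tested, with the log2 fold change of KD minus 5NC on the horizontal axis and the −log10 of the unadjusted edgeR p on the vertical axis. Black points are the 8 genes past an adjusted p of 0.05, all to the right of 0, and red circles are the 26 tested members of the immediate early list, 24 of them to the right of 0.

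Of the 8 genes, 6 matched an entry in the RefSeq promoter table (build GRCm38.p6), and 5 immediate early promoters are printed because these genes moved together. Each line holds the 200 bases before the transcription start given in that table, 5′ to 3′ on the gene's own strand. Capitals mark TGACG, the core of the element bound by CREB, and GCGGGGGCG, the consensus for EGR proteins, searched on both strands.
Btg2, chr1:134079156-134079355, minus strand: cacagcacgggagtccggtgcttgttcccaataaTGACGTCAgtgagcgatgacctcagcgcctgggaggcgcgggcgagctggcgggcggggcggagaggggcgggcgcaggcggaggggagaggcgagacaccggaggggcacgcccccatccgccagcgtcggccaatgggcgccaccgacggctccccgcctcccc
Fos, chr12:85473690-85473889, plus strand: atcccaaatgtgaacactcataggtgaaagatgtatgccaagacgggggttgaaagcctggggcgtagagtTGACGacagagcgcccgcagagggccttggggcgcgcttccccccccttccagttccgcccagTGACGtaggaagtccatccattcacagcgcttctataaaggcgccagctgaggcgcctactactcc
Fosb, chr7:19310046-19310245, minus strand: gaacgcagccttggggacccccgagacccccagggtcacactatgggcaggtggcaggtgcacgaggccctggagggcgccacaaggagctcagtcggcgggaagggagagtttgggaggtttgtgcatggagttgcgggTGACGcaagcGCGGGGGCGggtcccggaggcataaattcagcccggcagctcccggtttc
Zfp36, chr7:28379229-28379428, minus strand: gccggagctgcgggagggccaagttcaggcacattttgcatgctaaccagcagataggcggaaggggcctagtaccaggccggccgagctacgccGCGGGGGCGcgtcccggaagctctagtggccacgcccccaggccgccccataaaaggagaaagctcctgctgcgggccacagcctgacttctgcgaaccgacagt
Junb, chr8:84978749-84978948, minus strand: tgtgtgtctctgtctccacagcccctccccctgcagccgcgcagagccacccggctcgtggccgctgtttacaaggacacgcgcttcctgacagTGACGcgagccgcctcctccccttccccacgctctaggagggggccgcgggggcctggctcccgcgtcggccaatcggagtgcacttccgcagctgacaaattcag

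TGACG was present in 4 of the 6 windows (Btg2, Fos, Fosb and Junb), and in 15.7% of 32843 promoter windows of the same length in the table. The full palindrome TGACGTCA, which contains TGACG on both strands, occurred once, in Btg2, 166 bases before the start (1.47% of windows). GCGGGGGCG occurred in Fosb and Zfp36 (2.36% of windows), in Fosb 50 bases before the start, beside a TGACG at 60 bases. The CArG box, bound by serum response factor, was matched in Zfp36 alone, 58 bases before the start (1.18% of windows). TGANTCA, the AP-1 element, was matched in Arhgap40 alone, with matches at 119 and 40 bases (5.48% of windows). These matches describe the letters in the windows only. The printed Fosb window reaches into the span that the gene table gives for the gene.

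Egr1, a zinc finger transcription factor of the EGR family, gave the smallest p of the comparison. Its level was 53.4, 52.4 and 50.3 CPM in KD replicates 1 to 3 and 6.11, 3.29 and 4.10 CPM in the 5NC replicates. The groups lay far apart and the KD libraries were close to each other. The mean was 52.0 ± 1.58 CPM in KD and 4.50 ± 1.45 in 5NC (SD, n = 3), a log2 fold change of 3.52 ± 0.18 (SE) or 11.5-fold (edgeR adjusted p = 1.55e-07). The estimate rests on 2436 reads in KD and 214 in 5NC.

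Among AP-1 genes, Fos, Fosb and Junb rose. Fos, the founding member of the family, was at 8.73, 18.3 and 10.5 CPM in KD and 1.28, 0.92 and 0.769 in 5NC. KD replicate 2 was highest and the groups did not overlap. The log2 fold change was 3.64 ± 0.37 or 12.5-fold (edgeR adjusted p = 0.000834), from 584 reads in KD and 47 in 5NC. Fosb, a second FOS protein, was at 7.26, 5.64 and 7.91 CPM in KD and 2.5, 2.43 and 2.11 in 5NC, a log2 fold change of 1.56 ± 0.18 (edgeR adjusted p = 0.00237). Junb, a JUN protein that can restrain c-Jun, was at 16.1, 19 and 13 CPM in KD and 6.23, 3.55 and 3.65 in 5NC. Its log2 fold change was 1.83 ± 0.28 (edgeR adjusted p = 0.0298). In each of these 3 genes the lowest KD library lay above the highest 5NC library, by the least in Junb if measured as a ratio, where 5NC replicate 1 was the highest control.

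Btg2, Zfp36 and Ier2 rose as well. Btg2, an antiproliferative protein that recruits the CCR4-NOT deadenylase, was at 21.7, 31.5 and 15.9 CPM in KD and 5.5, 4.01 and 3.91 in 5NC, a log2 fold change of 2.36 ± 0.23 (edgeR adjusted p = 0.000815). Zfp36, or tristetraprolin, binds AU-rich elements and leads mRNAs to decay. It was at 12.3, 17.4 and 10 CPM in KD and 5.62, 4.34 and 4.61 in 5NC, with a log2 fold change of 1.44 ± 0.20 (edgeR adjusted p = 0.0137). Ier2, a nuclear protein of early growth responses, was at 7.84, 10.9 and 8.16 CPM in KD and 4.03, 2.89 and 2.63 in 5NC, with a log2 fold change of 1.49 ± 0.21 (edgeR adjusted p = 0.0142). KD replicate 2 gave the highest value of all 3 genes, and of Fos and Junb.

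Arhgap40 was the 1 called gene outside the list. It was at 1.72, 2.20 and 2.61 CPM in KD and 0.0611, 0.131 and 0.320 in 5NC. Its log2 fold change of 3.62 ± 0.56 (edgeR adjusted p = 0.0298) rests on 102 reads in KD and 8 in 5NC, and 5NC replicates 1 and 2 were below the 0.194 CPM that 3 reads stand for. It was not called in 9 of the 19 alternatives in which it was tested, with adjusted p between 0.000295 and 0.219.

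**Figure D2:**
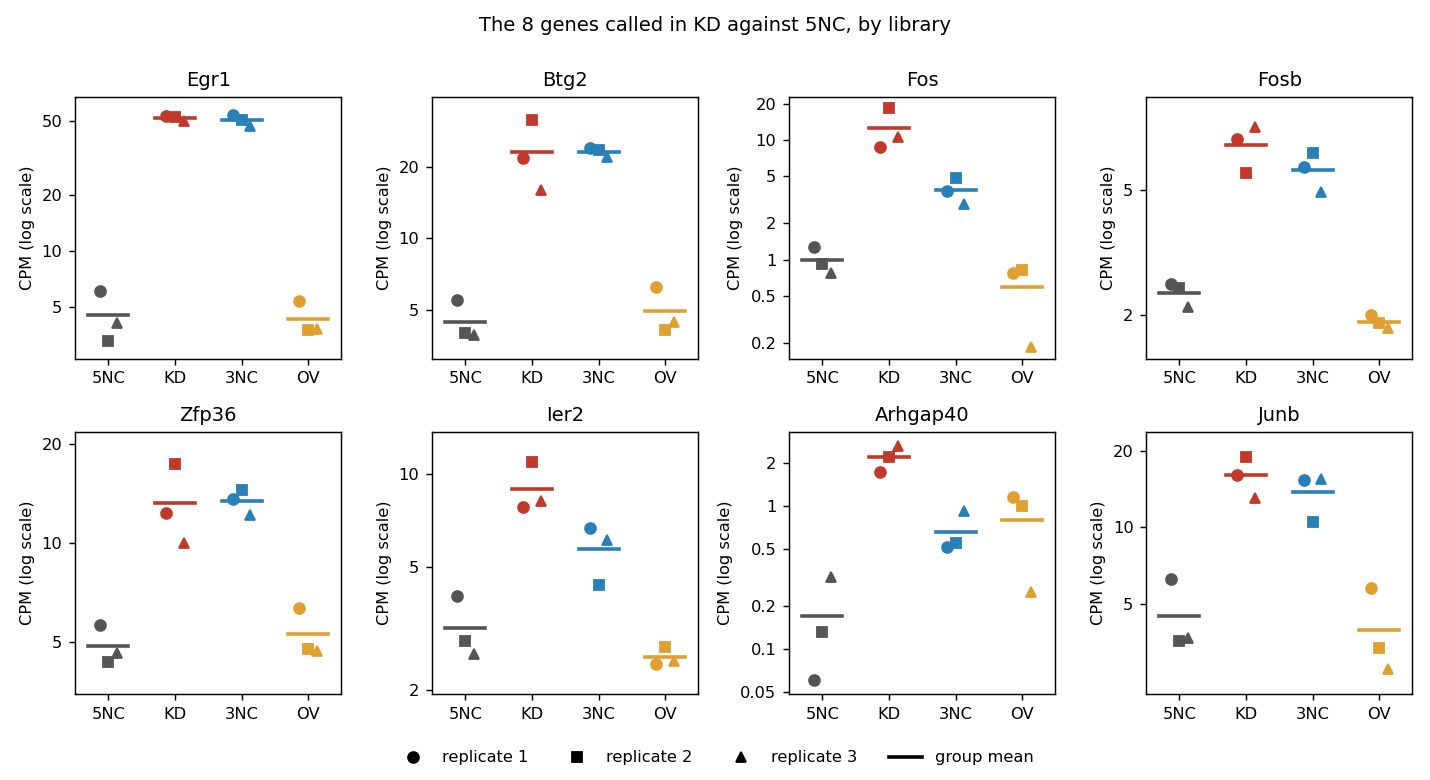
CPM of the 8 called genes on log axes, 1 panel per gene, with a point for each library and a line at each group mean. The 3 KD libraries lie above the 3 5NC libraries in each panel; in the immediate early panels 3NC lies near KD for Egr1, Btg2, Fosb, Zfp36 and Junb, between KD and 5NC for Fos and Ier2, and OV lies near 5NC.

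Set against each other per length, as FPKM, the highest of the 8 in KD was Egr1 with a mean level of 17.5, followed by Junb with 9.31, Zfp36 with 8.03, Btg2 with 7.76, Ier2 with 6.40, Fos with 6.32, Fosb with 1.93 and Arhgap40 with 1.14. In 5NC the order was different: Zfp36 had the highest FPKM level with 3.02, then Junb with 2.67, Ier2 with 2.33, Egr1 with 1.56, Btg2 with 1.54, Fosb with 0.667, Fos with 0.513 and Arhgap40 with 0.090.

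The called genes lie on 6 chromosomes (mm10). Fosb (chromosome 7, 19302696 to 19310118) and Zfp36 (chromosome 7, 28376784 to 28379228) are 9066665 bases apart. Ier2 (chromosome 8, 84661331 to 84662852) and Junb (chromosome 8, 84976909 to 84978748) are 314056 bases apart. Btg2 lies on chromosome 1 (134074865 to 134079155), Fos on chromosome 12 (85473890 to 85477274) and Arhgap40 on chromosome 2 (158512796 to 158550628). The called genes other than Arhgap40 are compact, with spans of 1522 to 7423 bases, where the median span of the tested genes was 23151 bases.

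The levels in 3NC and OV put the contrast in context. Mean Egr1 was 50.5 CPM in 3NC and 4.32 in OV, beside 52.0 in KD and 4.50 in 5NC. Btg2 was at 23.1 CPM in 3NC and 4.93 in OV, and Zfp36 at 13.4 and 5.26. Against 3NC none of the 8 genes was called in KD, in a comparison with 29 calls among all genes (0.178%; edgeR), with adjusted p from 0.059 for Fos to 0.996 for Btg2. The difference between the KD contrasts with 5NC and with 3NC is the 3NC minus 5NC contrast, which shares its control libraries with KD against 5NC. That contrast had 59 calls among all genes (0.362%; edgeR), and in it Egr1 had a log2 fold change of 3.48 ± 0.18 (adjusted p = 1.82e-07), Btg2 2.37 ± 0.23 (0.000265), Zfp36 1.46 ± 0.20 (0.00397), Fosb 1.30 ± 0.18 (0.00506) and Junb 1.61 ± 0.28 (0.0248). Fos, with 1.93 ± 0.39 (0.0587), Ier2, with 0.84 ± 0.21 (0.175), and Arhgap40, with 1.91 (0.318), did not pass there. Against OV, 7 of the 8 genes were called in KD, all except Arhgap40, in a comparison with 9 calls (0.0551%; edgeR).

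The immediate early list had 28 genes, of which 26 were tested. Of these, 24 were higher in KD by sign against 7759 of the 16320 genes tested. In 16 the 3 KD libraries all lay above the 3 5NC libraries, which 7.32% of all genes did, and 1 member, Ier5, lay below in all 3, as 6.34% of all genes did. The median log2 fold change was 0.53, beside −0.0087 over all genes tested; the median of the same members was 0.02 in KD minus 3NC and −0.08 in OV minus 5NC. Summed CPM of the list was 545, 560 and 533 in KD and 379, 364 and 380 in 5NC. The other groups had 541, 493 and 548 CPM in 3NC and 390, 376 and 316 in OV. Individual members outside the named-gene rule are named from here on after their values were seen.

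The EGR family was higher by sign in all 3 tested members, with Egr1 called. Egr2 was at 2.93, 1.94 and 1.40 CPM in KD and 0.916, 0.329 and 0.448 in 5NC, a log2 fold change of 1.86 ± 0.37 that did not pass (edgeR adjusted p = 0.21). Mean Egr2 was 4.94 CPM in 3NC and 0.483 in OV, and it was called in 3NC minus 5NC (edgeR adjusted p = 0.000842). Egr3 was abundant in all groups, with 33.0 CPM in KD and 26.7 in 5NC. Its log2 fold change was 0.31 ± 0.12 (edgeR adjusted p = 0.937). The EGR genes thus ranged from 11.5-fold to 1.24-fold higher. All 7 AP-1 genes of the list were higher by sign and 3 were called. Those not called were the stress-induced factor Atf3 with 1.29 ± 0.35, Fosl2 with 0.40 ± 0.28, Jund with 0.22 ± 0.22 and Jun with 0.17 ± 0.12 (log2 fold changes; edgeR adjusted p from 0.736 to 0.979). Jund, at 60.4 CPM in KD and 52.0 in 5NC, and Jun, at 11.3 and 10.1, differed by little between the groups. Mean Atf3 was 1.05 CPM in KD, 0.42 in 5NC, 1.99 in 3NC and 0.524 in OV. It was called in 3NC minus 5NC (edgeR adjusted p = 0.00837).

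Of the members not called, Dusp1, a phosphatase that inactivates MAP kinases, came closest to the threshold. It was at 14.4, 15.1 and 15.2 CPM in KD and 9.28, 9.46 and 8.65 in 5NC, so the groups did not overlap, and its log2 fold change of 0.70 ± 0.12 did not pass (edgeR adjusted p = 0.0818). Mean Dusp1 was 17.3 CPM in 3NC and 10.2 in OV. In 3NC minus 5NC it was called, with a log2 fold change of 0.92 ± 0.12 (edgeR adjusted p = 0.00298). DESeq2 and voom with sample weights called Dusp1, Egr2 and Cyr61. Cyr61 and Ctgf, matricellular genes that answer to YAP and serum response factor, had log2 fold changes of 1.57 ± 0.35 and 0.37 ± 0.18 (edgeR adjusted p = 0.368 and 0.958). Cyr61 was at 7.84, 8.94 and 6.69 CPM in KD and 4.21, 1.71 and 1.92 in 5NC, and its 3NC libraries, at 4.18, 2.92 and 2.49 CPM, lay below KD. The orphan nuclear receptors Nr4a1 and Nr4a2 had 0.31 ± 0.14 and 1.17 ± 0.40, and the Krüppel-like factors Klf2, Klf4 and Klf6 had 0.31, 0.13 and −0.24. Neither the NR4A nor the KLF family held a called gene.

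A further set of 5 members was nearer to 5NC than to 3NC in KD, with their highest levels in 3NC. Myc was at 0.663 CPM in KD and 0.445 in 5NC, and 4.88, 4.93 and 4.20 CPM in the 3NC libraries. Socs3, an inhibitor of cytokine signalling, was at 1.79 CPM in KD and 1.60 in 5NC, and 7.52, 14.4 and 10.8 CPM in 3NC. Nr4a3, Ier3 and Fosl2 had log2 fold changes of 0.17, 0.49 and 0.40 against 5NC and −1.84, −1.82 and −1.15 against 3NC. In KD against 3NC, Myc, Socs3, Nr4a3 and Ier3 were called lower (edgeR adjusted p = 0.00083, 0.0136, 0.00558 and 0.00899) and Fosl2 was not (0.174). The immediate early genes therefore did not follow 1 pattern over the groups: Egr1 and Btg2 were alike in KD and 3NC, Fos had its highest mean in KD, and Myc and Socs3 had theirs in 3NC.

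**Figure D3:**
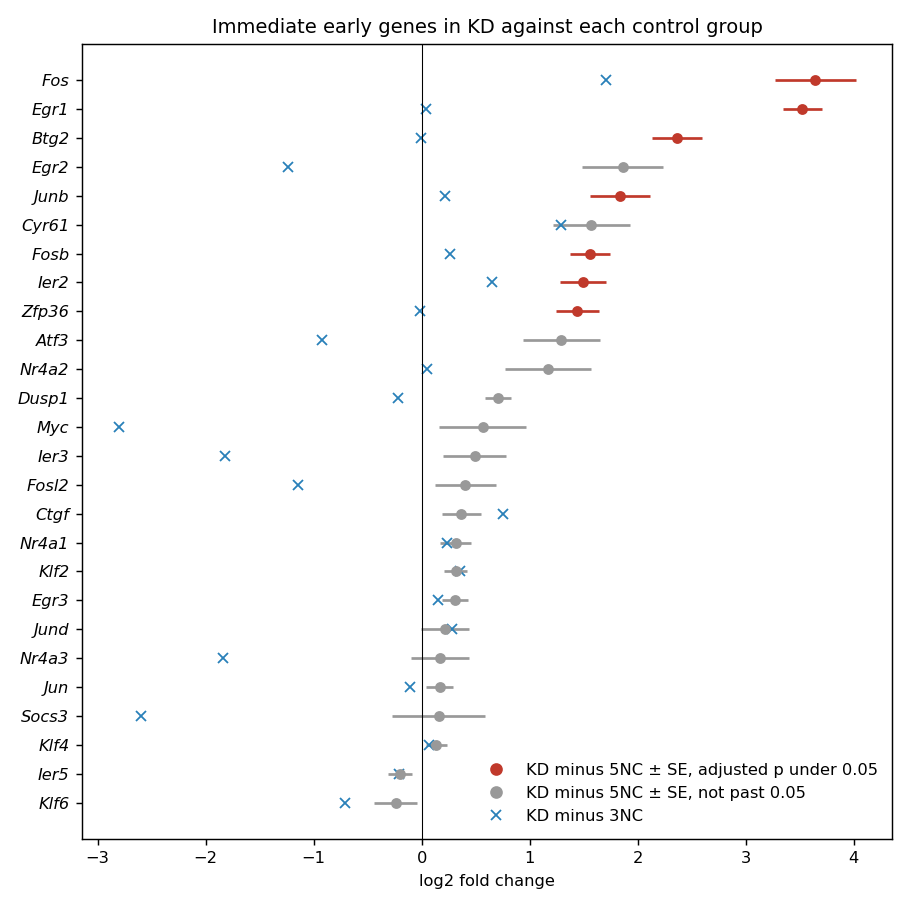
Log2 fold changes of the 26 tested immediate early genes, with circles and bars for KD minus 5NC ± SE (red where the adjusted p is under 0.05) and crosses for KD minus 3NC. Against 5NC 24 of the 26 circles lie to the right of 0, while the crosses scatter around 0 with Myc and Socs3 lowest, at −2.80 and −2.60.

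Beyond the 8 genes no other gene passed in the edgeR fit of all 4 groups. A fit of the 6 KD and 5NC libraries alone called 15 genes, 12 higher and 3 lower, the 8 among them. On the higher side the gene of next smallest p after Dusp1 was Cnbd2, which codes for a cyclic nucleotide-binding protein of the testis needed for sperm tail structure. It was at 158, 176 and 169 CPM in KD and 113, 124 and 128 in 5NC, a log2 fold change of 0.46 ± 0.08 (edgeR adjusted p = 0.126), and 140, 132 and 142 CPM in 3NC. On the lower side, Ramp1, a partner of calcitonin-family receptors, was at 0.828, 1.23 and 1.28 CPM in KD and 3.72, 2.30 and 2.56 in 5NC (log2 fold change −1.36 ± 0.27, edgeR adjusted p = 0.198). The 3NC libraries, at 1.16, 0.852 and 0.853 CPM, and the OV libraries, at 0.961 to 1.06, were as low as KD. Hmga1, a chromatin architectural protein, had 38.6 ± 6.58 CPM in KD and 66.9 ± 11.1 in 5NC (log2 fold change −0.79, edgeR adjusted p = 0.21).

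Other genes of smallest p on the lower side did not pass either. Dapp1, an adaptor protein of B cell signalling, had a log2 fold change of −0.83, the zinc finger gene Zscan22 −0.48, Paqr6, a membrane progesterone receptor, −0.99 and Kdm4a, a histone lysine demethylase, −0.52. Npc2, a lysosomal cholesterol carrier that is also abundant in epididymal fluid, had −0.37, and Cyp27a1, the mitochondrial sterol 27-hydroxylase, −0.72. Ism2 had −2.72 from 24 reads in KD and 162 in 5NC. Mean CPM in KD, 3NC, OV and 5NC was 7.81, 7.45, 12.3 and 13.9 for Dapp1 and 3.53, 3.44, 5.90 and 6.99 for Paqr6. It was 23.6, 23.9, 25.9 and 33.9 for Kdm4a and 51.7, 50.3, 51.8 and 66.6 for Npc2. In these genes 3NC was thus near KD, and in Kdm4a and Npc2 OV was nearer to KD than to 5NC. Ism2 had 0.512, 1.31, 1.01 and 3.43 CPM in the same order. In Zscan22 the 3NC and OV libraries (23.5 to 29.2 CPM) all lay above the 3 KD libraries (17.8 to 19.6 CPM), and in Cyp27a1 likewise (7.78 to 10.4 CPM above 5.23 to 7.12). In 5NC Zscan22 was at 24.6, 29.2 and 25.6 CPM, and its adjusted p was 0.23 in edgeR and 0.028 in DESeq2. Cnbd2, Dapp1, Paqr6 and Npc2 were likewise called by DESeq2 and by voom with sample weights, Hmga1, Ism2 and Spink8 by DESeq2, and Ramp1 and Kdm4a by voom.

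The remaining lists held 0 called genes each, and they are described by counts and medians beside the 47.5% of all tested genes that were higher by sign. In bulk tissue, fewer cells of a type and less RNA per cell cannot be told apart.

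Interferon-related genes had lower values in KD. Of 28 tested interferon response genes 26 were lower by sign, with a median log2 fold change of −0.80. Of these 26, 9 had an unadjusted edgeR p under 0.05, as 2.7% of all genes tested did on the lower side. Irf9, the DNA-binding subunit of the interferon-activated complex ISGF3, was at 3.70, 4.73 and 5.04 CPM in KD and 11.2, 8.08 and 7.30 in 5NC, a log2 fold change of −0.98 ± 0.27 (edgeR adjusted p = 0.736). Ifi35 had −0.67 and Usp18, which removes ISG15 from proteins, −1.38 (edgeR adjusted p = 0.937 for each). Usp18 rests on 18 reads in KD and 48 in 5NC, and its groups overlapped. Summed CPM of the list was 144, 163 and 157 in KD and 224, 246 and 171 in 5NC. Every KD library lay below every 5NC library, with 5NC replicate 3 close to KD. The 3NC libraries had 161, 245.5 and 168 CPM, and OV had 353, 376 and 211. Without 5NC replicate 2 the median of the interferon response list was −0.54.

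All 16 interferon-inducible GTPases, proteins that attack the vacuoles of intracellular pathogens, were lower by sign, with a median of −2.09. The members were uneven among the control libraries. Gbp4 was at 6.66, 28.0 and 2.82 CPM in 5NC and 1.15, 2.27 and 3.00 in KD, and Irgm2 at 6.23, 23.2 and 2.37 CPM in 5NC and 1.27, 2.20 and 2.49 in KD. The third 5NC library was thus within the range of KD. Summed CPM of the GTPases was 84.1, 300.2 and 31.1 in 5NC and 25.4, 30.7 and 35.8 in KD. Without 5NC replicate 2 the median of the interferon-inducible GTPase list was −1.01. The 3NC libraries, at 28.0, 310.7 and 50.8 CPM, were as uneven, and OV had 382, 619 and 182 CPM.

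Genes of antigen presentation were also lower in KD by sign. Of 17 tested genes of class I presentation, 14 were lower in KD by sign (median −0.46), and of 8 class II genes 6 were lower (median −0.73). Summed class I CPM was 441, 384 and 316 in 5NC and 277, 322 and 328 in KD, so the groups overlapped. Against 3NC the medians were −0.31 and −0.37, and those of the interferon response and GTPase lists −0.56 and −1.91. The proteasome activator genes Psme1 and Psme2 had log2 fold changes of −0.57 ± 0.19 and −0.44 ± 0.16, with no overlap between groups. H2-K1, a class I heavy chain, was at 66.1, 65.9 and 70.1 CPM in KD and 112, 85.7 and 78.2 in 5NC (−0.45 ± 0.24, edgeR adjusted p = 0.958). H2-D1, another, was at 46.3, 75.3 and 78.0 CPM in KD and 74.0, 45.7 and 47.3 in 5NC, a log2 fold change of 0.25 that goes the other way. H2 genes are close copies of each other, and the assignment of reads among them is uncertain.

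Sertoli cell, macrophage, tight junction and integrin genes were mostly lower in KD by sign, and their medians were nearer to 0 without 5NC replicate 1. Of 25 Sertoli cell genes 22 were lower (median −0.25), among them Sox9, the Sertoli fate gene, at 9.75, 11.7 and 14.9 CPM in KD and 19.2, 15.1 and 12 in 5NC, and Gdnf, the growth factor for spermatogonial stem cells, with −0.52. Krt18 had −1.38 from 27 reads in KD and 71 in 5NC. Summed Sertoli CPM was 2174 in 5NC replicate 1, against 1456 and 1581 in the other 5NC libraries and 1478 to 1548 in KD. Without 5NC replicate 1 the Sertoli median was −0.05 and the macrophage median, −0.31 with 16 of 20 genes lower, was −0.01. The medians of the blood-testis barrier genes (−0.12, 14 of 19 lower) and of integrin and focal adhesion genes (−0.10, 20 of 24 lower) became −0.02 and −0.01. Against 3NC the Sertoli median was 0.14, on the other side of 0, and against the mean of 5NC and 3NC it was −0.04. The tight junction, integrin and macrophage medians against 3NC were 0.07, −0.01 and −0.09.

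Of 21 Leydig cell and steroidogenesis genes 19 were lower by sign (median −0.17). Insl3, the insulin-like hormone of Leydig cells, was at 1538 CPM in 5NC replicate 1, 755 and 825 in replicates 2 and 3, and 626, 900 and 696 in KD, so only that library lay apart. Nr5a1, the steroidogenic factor SF-1, was at 64.3, 43.2 and 43.2 CPM in 5NC and 36.3, 42.2 and 37.9 in KD. Its groups did not overlap, and its log2 fold change was −0.37 ± 0.15 (edgeR adjusted p = 0.937). Without 5NC replicate 1 the Leydig median was −0.09, and against 3NC it was −0.07. Laminin and collagen genes of the basement membrane were also highest in that library: Lama1 was at 28.6 CPM there and at 15.2 to 18.7 in the other libraries of both groups, and Lamb2 at 58.3 and at 28.6 to 36.8.

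Epididymal transcripts were present in 5NC. Crisp1, a sperm-coating protein made by the epididymis, was at 9.95, 93.3 and 90.0 CPM in 5NC and 0.319, 7.06 and 0 in KD, with 2988 and 114 reads. Adam7 was at 0.550, 5.19 and 17.7 CPM in 5NC and 0.0637, 1.42 and 0 in KD. Spink8 was at 3.48, 16.6 and 12.9 CPM in 5NC and 1.47, 2.33 and 1.47 in KD (log2 fold change −2.64 ± 0.57, edgeR adjusted p = 0.399). The list had 7 tested members, 4 of them lower with a median of −2.18, and its summed CPM was 29.1, 145 and 174 in 5NC and 17.9, 29.5 and 14.9 in KD. Against 3NC the epididymis median was 0.35. Without 5NC replicates 2 and 3 the control was 1 library, the one farthest from the others, assumed to vary like the other groups. In that fit Egr1 passed with a log2 fold change of 3.08, and the other 7 genes had log2 fold changes of 1.15 (Ier2) to 4.98 (Arhgap40) and did not pass. The part of epididymal transcripts in the called genes was not tested. Of 9 tested fat genes 6 were lower (median −0.13). Plin1, which coats lipid droplets, was at 1.21, 1.42 and 0.956 CPM in KD and 2.63, 1.97 and 2.31 in 5NC. Mean Plin1 was 0.828 CPM in 3NC and 1.36 in OV. In 3NC minus 5NC it was called lower (log2 fold change −1.47 ± 0.27, edgeR adjusted p = 0.0333).

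Red cell transcripts went the other way. Hba-a1, an alpha globin, was at 44.8, 80.0 and 60.7 CPM in KD and 41.9, 23.1 and 22.7 in 5NC, and 3 of 4 tested erythrocyte genes were higher (median 1.19). None passed (edgeR adjusted p = 0.958 for each). Endothelial genes were mixed, with 11 of 18 higher and a median of 0.03: the VEGF receptor gene Flt1 was at 6.95, 7.38 and 9.63 CPM in KD and 5.31, 5.72 and 5.77 in 5NC, while Cd34 and Robo4 had log2 fold changes of −0.43 and −1.06. Summed CPM of lymphocyte and granulocyte genes was 10.3 to 12.9 in KD and 9.42 to 12.5 in 5NC. Beside the higher immediate early genes, Hba-a1 was thus higher in KD, and summed epididymal CPM was lower than in 5NC replicates 2 and 3. The epididymal sum of 5NC replicate 1 (29.1) lay within the range of KD (14.9 to 29.5). The part of red cells and epididymal cells in the immediate early result was not tested.

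**Figure D4:**
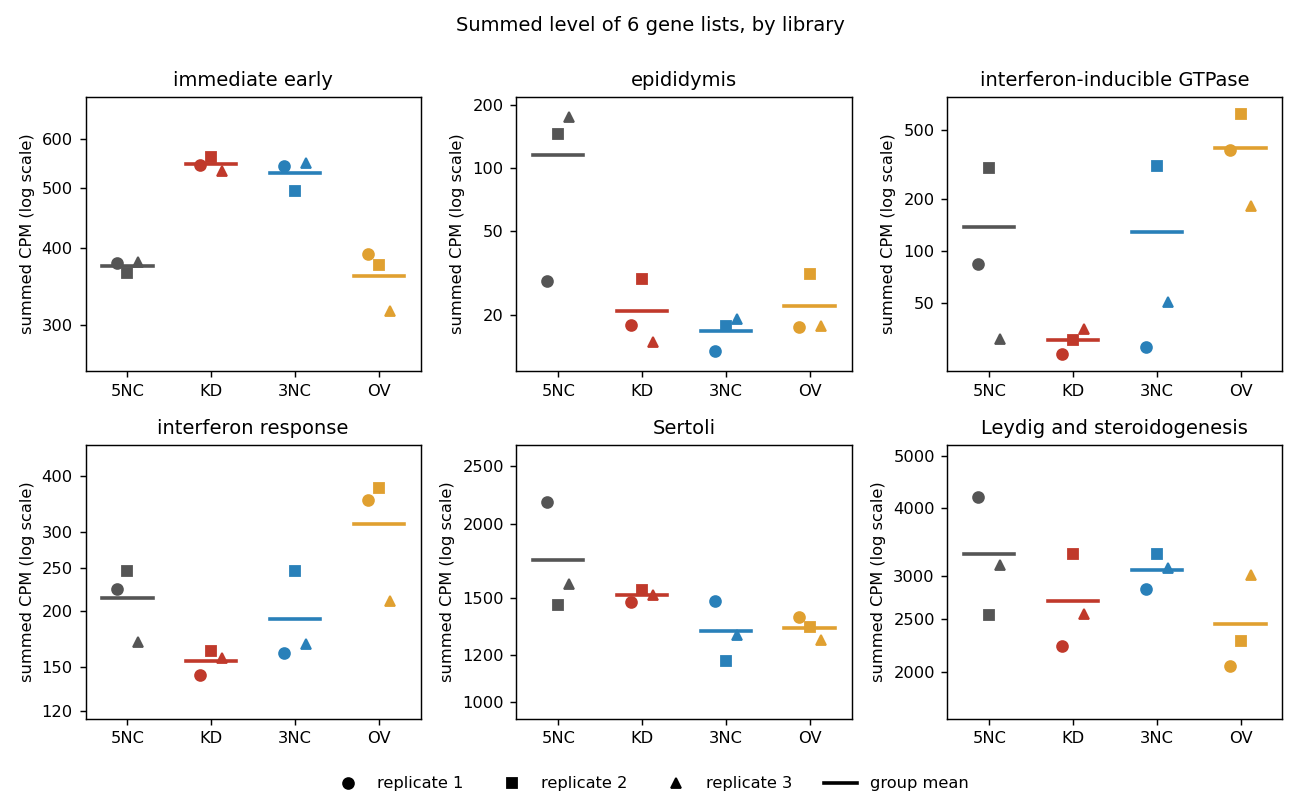
Summed CPM of 6 gene lists on log axes, with a point for each library and a line at each group mean. The immediate early sums of KD (533 to 560) lie above those of 5NC (364 to 380), whereas the highest 5NC point is replicate 1 in the Sertoli and Leydig panels, replicate 2 in both interferon panels and replicate 3, close to replicate 2, in the epididymis panel.

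Germ cell genes differed little. All 22 tested elongating spermatid genes were higher by sign with a median of 0.08, 16 of 19 round spermatid genes with a median of 0.12, and 14 of 16 pachytene spermatocyte genes with a median of 0.05. The histone-like gene Hils1 had 0.27 ± 0.12, the sperm tail protein gene Cabyr 0.18 ± 0.08, the calcium channel gene Catsper1 0.18 ± 0.08 and the acrosomal gene Acrv1 0.13 ± 0.07 (log2 fold changes). Summed round spermatid CPM was 2971 in 5NC replicate 1, 3457 and 3402 in the other 5NC libraries and 3434 to 3522 in KD. Without 5NC replicate 1 the elongating, round and pachytene medians were 0.00, 0.05 and 0.01. The genes of meiotic recombination, with 12 of 23 higher, and of the piRNA pathway, with 11 of 19, were evenly split, with medians of 0.01 and 0.02.

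Among spermatogonial genes, Gfra1, the GDNF receptor of stem cells, was at 13.5, 12.5 and 13.4 CPM in KD and 9.28, 10.3 and 12.9 in 5NC, and Ccnd2 at 5.35, 5.70 and 7.59 CPM in KD and 17.8, 7.03 and 8.52 in 5NC. The list of undifferentiated spermatogonia had a median of −0.08 with 6 of 15 higher. Dnmt3l, the cofactor of DNA methylation in germ cells, was at 9.18, 10.3 and 8.16 CPM in KD and 4.58, 3.35 and 7.43 in 5NC, without overlap. Its log2 fold change was 0.85 ± 0.28 (edgeR adjusted p = 0.869). Mean Dnmt3l was 8.53 CPM in 3NC and 7.90 in OV, and the log2 fold change in KD minus 3NC was 0.11.

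Housekeeping lists had medians near 0. Of 39 ribosomal protein genes 36 were lower by sign with a median of −0.08; Rplp1 had −0.17 ± 0.07, Rps9 −0.13 ± 0.07 and Rpl10 −0.37 ± 0.15, and ribosomal protein genes have many processed copies, so single values are uncertain. In 13 of the 39 the 3 KD libraries all lay below the 3 5NC libraries (6.34% of all genes) and in 0 above (7.32%). Summed ribosomal CPM was 6759 to 6932 in KD and 7045 to 7238 in 5NC. The ribosomal median was 0.08 against 3NC and 0.01 against the mean of 5NC and 3NC. Of 27 oxidative phosphorylation genes 19 were lower (median −0.03), with Atp5e, the epsilon subunit of ATP synthase, at 48.2, 40.5 and 51.9 CPM in KD and 77.3, 56.3 and 75.2 in 5NC (−0.57 ± 0.15, edgeR adjusted p = 0.736). In 5 of the 27 all KD libraries lay below all 5NC libraries, and in 1 above. Their summed CPM was 3123.5 to 3149 in KD and 3194 to 3248 in 5NC. In 3NC the sum was 2816 to 3138 CPM and in OV 2929 to 3040, and the median in KD minus 3NC was 0.04. Mean Atp5e was 46.9 CPM in KD, 41.7 in 3NC, 42.8 in OV and 69.6 in 5NC. Heat shock genes had a median of −0.02, the NRF2 list −0.02, the circadian clock −0.03 and cholesterol synthesis 0.01.

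**Figure D5:**
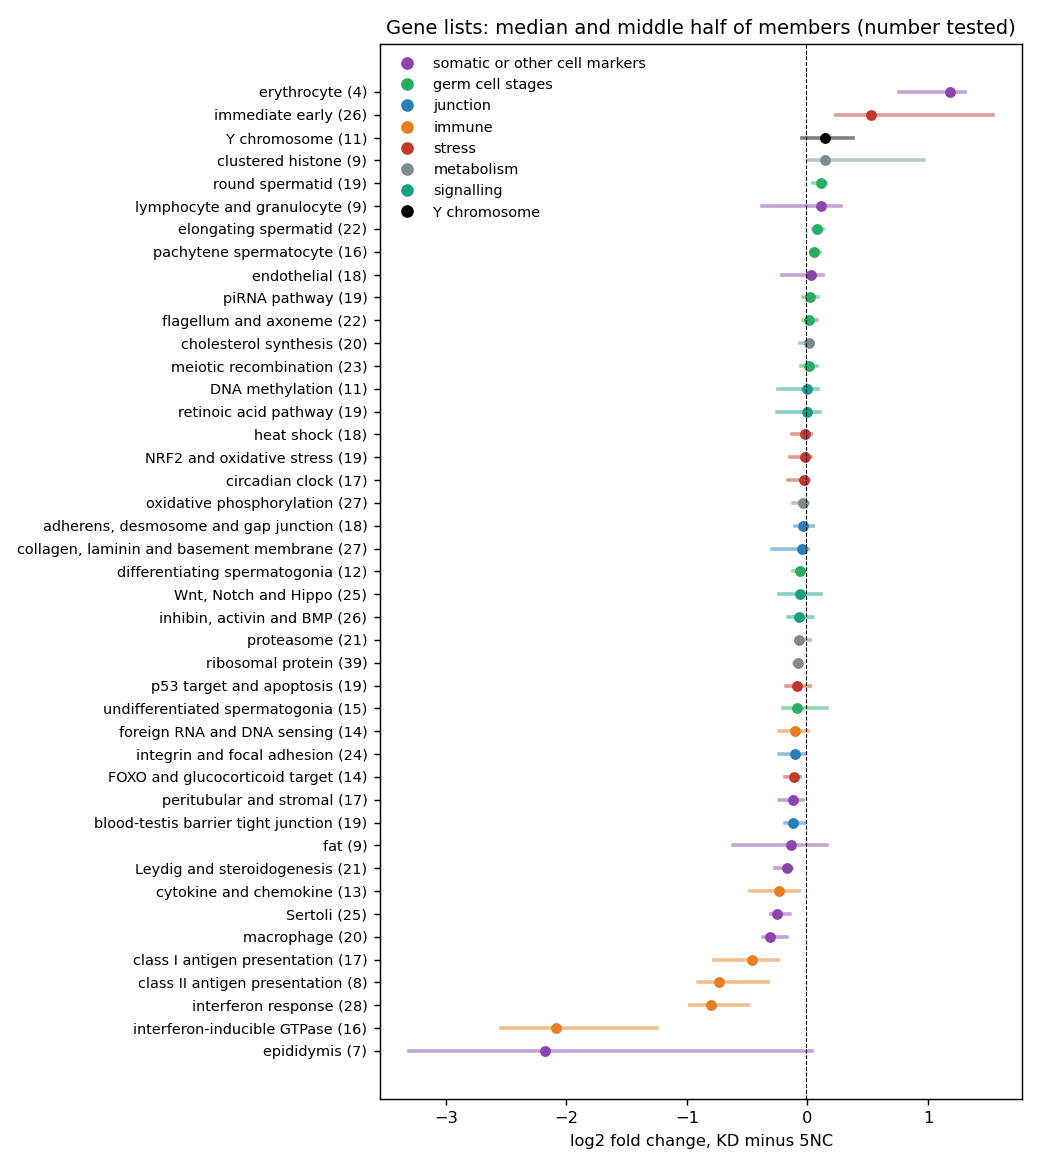
Median log2 fold change (points) and interquartile range of the members (bars) of the 43 lists in KD minus 5NC, with the number of tested members in brackets and a dashed line at the median of all genes tested. The immediate early and erythrocyte medians lie to the right, at 0.53 and 1.19, and the epididymis, GTPase and interferon response medians to the left, at −2.18, −2.09 and −0.80.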

How the data were processed

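Total RNA of 12 mouse testis libraries was sequenced by the authors. They deposited 1 table with expected counts per gene (estimated reads, not normalised, per the file headers), of which 88.0% were whole within a tolerance of 1e-06, and a second value per gene. The deposited second value was taken here as FPKM, because, over 5204 genes with more than 500 reads, its ratio to the reads scaled with 1 over the total of each library, within 0.527%. Genome build mm10 comes from the submitters' processing notes; no aligner, counter or strandedness is given in the sources used here, so reads of overlapping antisense genes cannot be told apart. A further 18 per-sample columns that match no library of the series were not used.

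Expected counts were rounded and tested with edgeR 4.0.16 in R 4.3.3 (robust quasi-likelihood, TMM, filterByExpr with minimum count 10 and minimum total 15) in 1 fit of all 4 groups, contrast KD minus 5NC, with Benjamini-Hochberg adjustment over all genes tested. SE, an approximation, divides the absolute log2 fold change by the square root of F. Fold changes carry a prior count of 0.125. CPM are TMM-scaled. A floor of 3 reads is 0.183 to 0.194 CPM per library and covers counting error only. On simulated counts for KD against 5NC over 16211 genes, the test recovered 39.6%, 73.5%, 97.9% and 100% of genes changed by 0.5, 1, 2 and 3 log2 units, with 7 false among 159 calls. These counts were drawn independently around a shared mean per gene, with the spread typical of genes at that level. They lack the uneven libraries seen here, and the real comparison had 8 calls, so these rates may not hold for it.

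The 43 gene lists (851 entries, 838 matched) and the members named were chosen with earlier results of these data known. The rule for naming genes took those called that had a symbol, at least 1 CPM and no overlap between groups, filled to 10 per direction by smallest p, and, per list, its called members, the 3 of smallest p and the first 2 written. Gene coordinates are from RefSeq for GRCm38.p6, with 20564 identifiers (99.3%) matched. Alternatives used other normalisations, filters, tools (DESeq2 1.42.0, limma 3.58.1), control groups and left-out libraries. Correlations showed no pairing of libraries by replicate number, and the labels do not say what the numbers stand for.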

Additional observations from a re-analysis of the deposited data

How the results depend on the processing

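The 8 genes called higher in KD than in 5NC kept a higher sign in each alternative in which they were tested. Egr1 was called in 20 of 20 alternatives (adjusted p at most 0.000218), Fos in 19, Btg2 and Fosb in 18 each, Zfp36 in 14, Ier2 in 13 and Junb in 11 (edgeR, DESeq2 or limma; adjusted p at most 0.0969, 0.0969, 0.0969, 0.367, 0.147 and 0.307). Arhgap40 was called in 10 of 19. The count of calls was 8 with RLE size factors, with upper quartile normalisation and without a filter on low counts, and 7 with a filter at a mean of 1 CPM, which removed Arhgap40. With limma on FPKM it was 8 at a pseudocount of 1 and 9 at 0.1, in both with 7 of the 8 genes and without Junb. It moved to 15 with the 6 libraries alone (12 higher, 3 lower), 35 with DESeq2 (23 higher, 12 lower), 27 with voom and sample weights (17 higher, 10 lower), and 3 against the mean of 5NC and 3NC (Egr1, Fos and, lower, Sema4b, named after its value was seen). In 2 alternatives chosen after seeing the data it was 14 without 3NC replicate 2 and OV replicates 1 and 3 (13 higher, 1 lower), and 5 without 5NC replicates 2 and 3 (1 higher, Egr1, and 4 lower), where 1 control library was left. Leaving out 1 library gave 4 to 10 calls, with 10 without 5NC replicate 1 (7 higher, 3 lower) and 4 without KD replicate 2, 5NC replicate 2 or 5NC replicate 3; the calls of Junb, Zfp36, Ier2 and Arhgap40 were lost in the last 3. Without KD replicate 1 (5 calls) Junb, Zfp36 and Arhgap40 were lost, without KD replicate 3 (5 calls) Junb, Ier2 and Arhgap40, and without 5NC replicate 1 Arhgap40.

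Deviations of KD and 5NC libraries with the same replicate number had correlations of −0.01, −0.11 and −0.03. These values show no pairing by number, but with 3 libraries per group they cannot settle it, and the labels give a number only. A replicate block gave 8 calls in the fit of all 4 groups, with Ssty1 in place of Arhgap40, and 18 in the fit of 6 libraries (14 higher, 4 lower), without Ier2; 0 of 3 KD libraries correlated best with the 5NC library of its own number.

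Against the mean of 5NC and 3NC the log2 fold changes of Fosl2, Ier3, Nr4a3, Myc and Socs3 turned to −0.37, −0.66, −0.83, −1.12 and −1.22, since these genes were high in 3NC. Without 5NC replicates 2 and 3, Socs3 had −0.22 and H2-D1 −0.16. Genes under about 1 CPM rest on few reads, and depth limits what can be said of them.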
